A study of Mus musculus with 3 samples.

Results

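The genes of the proteasome were followed across 3 arrays of mouse CD8 T cells. Every probe set was taken whose annotation on the array platform gives a single symbol starting with Psma, Psmb, Psmc, Psmd or Psme and a number, which found 91 probe sets of 44 genes among 34958 probe sets of 18194 genes with 1 symbol. Of the 44 genes, 14 encode the 20S core particle, 17 the regulatory cap that sits on it, 4 belong to the immunoproteasome set, 3 encode chaperones that assemble the cap and 2 other activators. The remaining 4 match the letters of the rule and are no part of the proteasome of ordinary cells: Psma8 encodes a core subunit of the testis, Psmb11 a core subunit of the thymus, Psmc3ip a protein of meiotic recombination and Psme3ip1 a protein that binds the activator Psme3. The fifth gene of the immunoproteasome set, Psme2, has no value here, because the 1 probe set annotated to it also carries the symbol Psme2b.

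The proteasome is the main protease that breaks down ubiquitin-tagged proteins in the cell. Its barrel-shaped core has outer rings of alpha subunits, which gate the entrance, and inner rings of beta subunits, of which Psmb5, Psmb6 and Psmb7 cut proteins. The cap recognises, unfolds and feeds in the tagged proteins. Interferon gamma is known to induce Psmb8, Psmb9 and Psmb10, which replace the constitutive cutting subunits in newly built cores, and Psme1 and Psme2, which together form another activator of the core. The resulting immunoproteasome is abundant in lymphocytes and shapes the peptides that MHC class I molecules present.

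Each group held 1 array of CD8 T cells from the MLN, the usual short form of mesenteric lymph node, which the labels do not spell out. The VILLIN-HA/CL4-TCR group and the Villin-HA + CL4-TCR group combine T cells of the transgenic receptor CL4-TCR, specific for hemagglutinin (HA) of influenza virus, with HA driven by the promoter of villin, a gene of gut epithelial cells, and the CL4-TCR group carries the receptor alone. All 3 groups thus share the receptor transgene. The submitters name a plain, an activated and a regulatory CD8 population, but nothing in the labels ties either HA group to the activated or the regulatory population. The sources used here give no age, strain background or pooling of mice.

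Values are MAS5 signals on a linear scale, each array having a trimmed mean of 150.001. Signals were raised to a floor of 31.7, the median of all values, before log2 differences were taken, each gene was read from its probe set with the highest mean signal, and a gene was counted from a 2-fold difference up. With 1 array a group there is no replicate error and no test. All differences are between arrays, and their number limits the precision. The only error that could be measured was the disagreement between probe sets of 1 gene, whose pooled SD on the log2 scale was 0.43 between VILLIN-HA/CL4-TCR and CL4-TCR, 0.65 between Villin-HA + CL4-TCR and CL4-TCR, and 0.61 between the 2 HA groups. Of the 44 genes, 42 lay above the floor on every array, Psma8 in VILLIN-HA/CL4-TCR cells alone, with a signal of 39.2, and Psmb11 on none.

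The arrays carried transcripts that mark CD8 T cells and, at unequal levels, transcripts that mark other cells. All 9 measured CD8 T cell markers lay above the floor on each array, with summed signals of 23513 in VILLIN-HA/CL4-TCR cells, 25835 in Villin-HA + CL4-TCR cells and 25057 in CL4-TCR cells, and Cd4 lay below it on each. Of these sums 11459, 11082 and 11134 came from Ptprc, a gene of all leukocytes. The median log2 difference of the 9 markers between VILLIN-HA/CL4-TCR and CL4-TCR was -0.41, and Cd2 had signals of 714.1, 1257 and 2308, 3.23-fold lower in VILLIN-HA/CL4-TCR than in CL4-TCR. Of 13 myeloid markers, 9, 10 and 6 lay above the floor in the same order, with summed signals of 1685, 2082 and 335.8. The defining gene Itgam lay below the floor on all 3 arrays. All 9 measured in VILLIN-HA/CL4-TCR and all 10 in Villin-HA + CL4-TCR were higher than in CL4-TCR, with median log2 differences of 0.48 and 1.52. Between the HA arrays, 3 were higher in VILLIN-HA/CL4-TCR by at least 2-fold (Lyz2, Csf1r and C1qb) and 3 lower (S100a8, Itgax and Cd68). Of all measured genes, 6.14% were higher and 8.95% lower there. All 12 skeletal muscle markers and 7 of 8 stromal markers were above the floor in Villin-HA + CL4-TCR cells, with summed signals of 6420 and 1132, against 3 and 0 in VILLIN-HA/CL4-TCR cells and 2 and 1 in CL4-TCR cells. Of 6 B cell markers, 4, 3 and 4 were above it, Cd79a on none, with summed signals of 612.1, 401.1 and 309. All 4 measured B cell markers were higher in VILLIN-HA/CL4-TCR than in CL4-TCR, by a median of 2.11-fold. The control probe sets of Gapdh, which read both ends of 1 transcript, gave ratios of 3′ to 5′ signal of 46.2, 3.35 and 18.4, in the same order, and those of Actb 2.46, 1.80 and 1.98. Xist, made by female cells, had signals of 2.5, 1339 and 5442.5, and the Y-linked Eif2s3y 1496, 746.9 and 13.4. The arrays thus also differed in the sex of the cells, and Villin-HA + CL4-TCR had transcripts of both sexes. Mki67, a marker of dividing cells, had signals of 2197 in VILLIN-HA/CL4-TCR, 3191 in Villin-HA + CL4-TCR and 22.8 in CL4-TCR, the last below the floor. The part of these differences in the results below was not tested, and in such samples fewer cells of a type and less RNA per cell cannot be told apart.

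The immunoproteasome genes stood lowest in VILLIN-HA/CL4-TCR cells. All 4 measured genes had a lower signal there than on either other array, and 3 of them, Psmb8, Psmb10 and Psme1, were lower than in CL4-TCR cells by at least 2-fold, where 6.63% of 11260 measured genes were lower. None of the 4 in Villin-HA + CL4-TCR cells was counted in either direction against CL4-TCR, where 21.4% of 12196 measured genes were. The median log2 difference from CL4-TCR was -1.44 for VILLIN-HA/CL4-TCR and 0.28 for Villin-HA + CL4-TCR, beside medians over all measured genes of -0.04 and 0.06.

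Psmb8, which replaces Psmb5 and carries the chymotrypsin-like activity of the immunoproteasome, had a signal of 619.9 in VILLIN-HA/CL4-TCR cells, 2693 in Villin-HA + CL4-TCR cells and 1470 in CL4-TCR cells. The VILLIN-HA/CL4-TCR array was 2.37-fold lower than CL4-TCR and 4.34-fold lower than Villin-HA + CL4-TCR, and the Villin-HA + CL4-TCR array was the highest of the 3. A dimmer probe set of Psmb8 had signals of 151.1, 171.6 and 199.6 in the same order, with log2 differences from CL4-TCR of -0.40 and -0.22. Both probe sets are of types that can match several transcripts. With them averaged, the log2 difference of Psmb8 between VILLIN-HA/CL4-TCR and CL4-TCR was -0.82, short of 2-fold.

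Psmb10, which replaces Psmb7, had a signal of 452.2 in VILLIN-HA/CL4-TCR cells, 1360 in Villin-HA + CL4-TCR cells and 1433 in CL4-TCR cells. The VILLIN-HA/CL4-TCR array was 3.17-fold below CL4-TCR, while Villin-HA + CL4-TCR and CL4-TCR differed by only -0.08 on the log2 scale. Psme1, the alpha chain of the interferon-induced activator, was likewise lowest in VILLIN-HA/CL4-TCR, with signals of 687.3, 2381 and 2144. The VILLIN-HA/CL4-TCR signal of Psme1 was 3.12-fold below CL4-TCR and 3.46-fold below Villin-HA + CL4-TCR. Both genes have 1 probe set each, so no second reading bears on them.

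Psmb9, which replaces Psmb6, had a smaller spread, with signals of 1426 in VILLIN-HA/CL4-TCR cells, 2623 in Villin-HA + CL4-TCR cells and 1976 in CL4-TCR cells. Its log2 difference was -0.47 for VILLIN-HA/CL4-TCR and 0.41 for Villin-HA + CL4-TCR against CL4-TCR, neither past 2-fold. These are close in size to the disagreement between probe sets of 1 gene.

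The stretches before the annotated starts of these genes are shown because the 4 genes were low together on 1 array, and that of Psmb5, the constitutive partner of Psmb8, is shown for contrast. They are the 250 bases before the start in the RefSeq promoter windows of build GRCm38.p6, which hold windows for 39 symbols that fit the rule, Psme2 and Psme2b included. Capitals mark matches, on either strand, to 4 searched motifs: GAAA, any 2 bases and GAAA, the interferon-stimulated response element; TTCNNNGAA, the gamma-activated site; TGACNNNGC, the antioxidant response element bound by NRF factors; and CCAAT, the box bound by NF-Y.

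Psmb8, chr17:34197945-34198194, plus strand: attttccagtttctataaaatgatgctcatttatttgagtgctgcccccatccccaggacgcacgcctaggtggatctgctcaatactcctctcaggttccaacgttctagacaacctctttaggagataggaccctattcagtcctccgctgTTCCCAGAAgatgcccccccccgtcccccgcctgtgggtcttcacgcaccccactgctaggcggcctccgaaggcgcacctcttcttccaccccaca

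Psmb9, chr17:34187331-34187580, minus strand: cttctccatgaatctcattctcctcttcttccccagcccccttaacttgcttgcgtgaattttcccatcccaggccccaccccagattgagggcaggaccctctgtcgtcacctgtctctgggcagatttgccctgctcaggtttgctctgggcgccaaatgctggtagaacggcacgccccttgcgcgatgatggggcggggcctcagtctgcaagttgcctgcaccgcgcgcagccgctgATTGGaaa

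Psmb10, chr8:105938393-105938642, minus strand: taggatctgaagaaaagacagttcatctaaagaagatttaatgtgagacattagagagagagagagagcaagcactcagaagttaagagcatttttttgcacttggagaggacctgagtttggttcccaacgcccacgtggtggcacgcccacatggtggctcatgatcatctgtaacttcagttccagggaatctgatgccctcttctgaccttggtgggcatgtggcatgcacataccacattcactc

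Psme1, chr14:55578244-55578493, plus strand: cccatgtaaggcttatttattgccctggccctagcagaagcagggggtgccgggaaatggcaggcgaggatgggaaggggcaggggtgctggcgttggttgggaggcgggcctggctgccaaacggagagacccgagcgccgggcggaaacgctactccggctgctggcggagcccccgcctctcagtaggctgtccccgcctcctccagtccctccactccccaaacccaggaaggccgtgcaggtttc

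Psmb5, chr14:54617996-54618245, minus strand: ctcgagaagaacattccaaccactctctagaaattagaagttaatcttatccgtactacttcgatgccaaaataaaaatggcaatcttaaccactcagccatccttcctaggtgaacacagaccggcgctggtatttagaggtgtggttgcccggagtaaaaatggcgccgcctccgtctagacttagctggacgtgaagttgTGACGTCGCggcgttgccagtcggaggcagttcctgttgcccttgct

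Psmb8 held 1 match to the gamma-activated site, 97 to 89 bases before its start, and Psmb9 1 CCAAT box, 8 to 4 bases before it, read on the opposite strand. Psmb5 held 1 match to the antioxidant response element, 47 to 39 bases before the start, and the stretches of Psmb10 and Psme1 held none of the 4 motifs. Over 27025 genes with such a window, 3.46% held the interferon-stimulated response element, 8.13% the gamma-activated site, 11.5% the antioxidant response element and 37.5% the CCAAT box. The gamma-activated site was found in 1 of 5 immunoproteasome genes with a window (Psme2 included), in 0 of 11 core genes and in 0 of 14 cap genes. The interferon-stimulated response element was found in 0 immunoproteasome genes, 1 core gene (Psmb3) and 1 cap gene (Psmd4), and the antioxidant response element in 0, 2 (Psmb5 and Psmb6) and 2 (Psmc6 and Psmd12). A match is a run of letters and does not show that a factor binds there. Nor does the lack of a match in these stretches show that no factor binds.

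The constitutive cutting subunits were not lowest in VILLIN-HA/CL4-TCR cells, as their replacements were. Psmb5, the chymotrypsin-like subunit, had signals of 1717 in VILLIN-HA/CL4-TCR cells, 1777 in Villin-HA + CL4-TCR cells and 1351 in CL4-TCR cells. Psmb6, the caspase-like subunit, had 1785, 1423 and 1175 in the same order. Both were highest on an HA array and lowest in CL4-TCR, with log2 differences from CL4-TCR of 0.35 and 0.40 for Psmb5 and of 0.60 and 0.28 for Psmb6, none past 2-fold.

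Psmb7, the trypsin-like subunit, differed far more. Its signal was 454.5 in VILLIN-HA/CL4-TCR cells, 1826 in Villin-HA + CL4-TCR cells and 158.2 in CL4-TCR cells. Against CL4-TCR it was 2.87-fold higher in VILLIN-HA/CL4-TCR and 11.5-fold higher in Villin-HA + CL4-TCR, the largest difference of any member in these comparisons. Psmb7 has 1 probe set, and 11.9% of 12196 measured genes were higher in Villin-HA + CL4-TCR.

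Set against its constitutive partner, each replacing subunit had the lower log2 difference of VILLIN-HA/CL4-TCR from CL4-TCR. The log2 difference of the immunoproteasome gene minus that of its partner was -1.59 for Psmb8 and Psmb5, -1.07 for Psmb9 and Psmb6, and -3.19 for Psmb10 and Psmb7. For Villin-HA + CL4-TCR against CL4-TCR the same values were 0.48, 0.13 and -3.60, so the first pairs lay within 0.48 of 0 and the last was set by Psmb7. For VILLIN-HA/CL4-TCR against Villin-HA + CL4-TCR they were -2.07, -1.21 and 0.42.

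**Figure D1:**
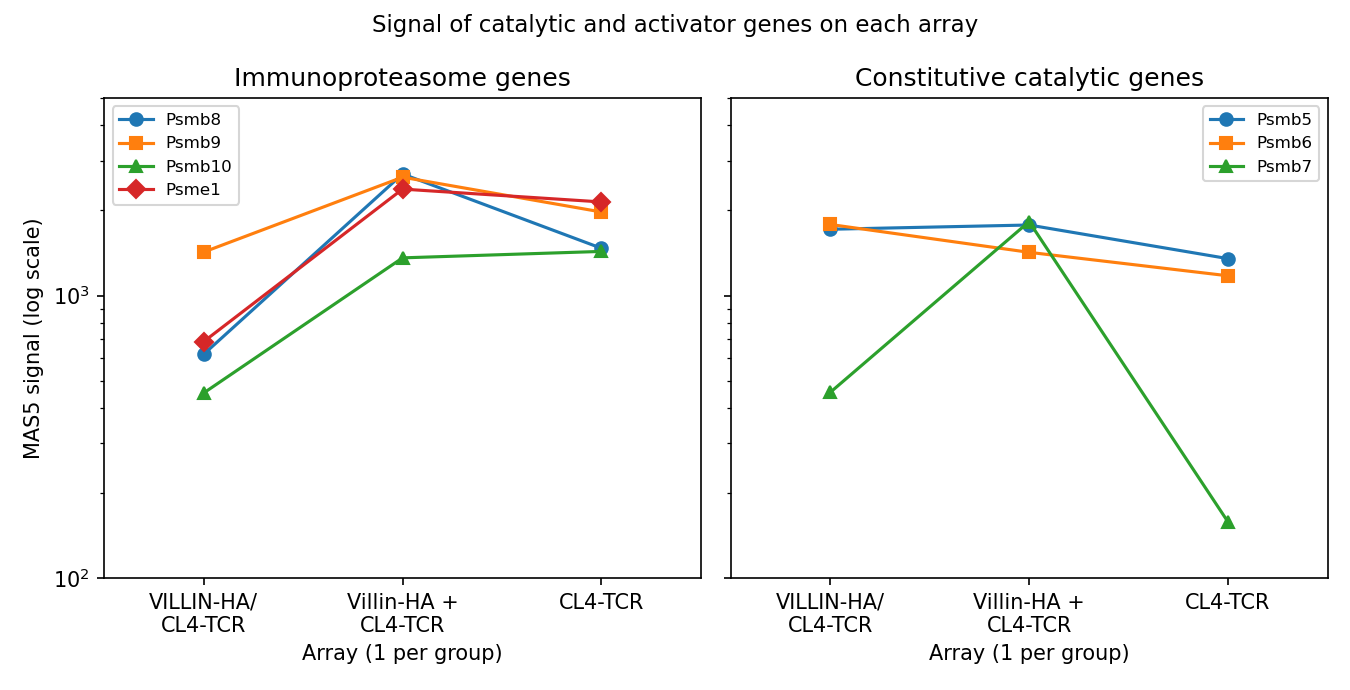
MAS5 signal on a log scale (y axis) of 4 immunoproteasome genes (left) and 3 constitutive cutting subunits (right) on the 3 arrays (x axis, 1 array per group). Lines join the values of 1 gene, and all 4 immunoproteasome genes are lowest in VILLIN-HA/CL4-TCR cells, at signals from 452.2 to 1426, while Psmb7 reaches 1826 in Villin-HA + CL4-TCR cells.

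Most genes of the alpha ring had higher signals on both HA arrays than in CL4-TCR. All 7 alpha genes had a positive log2 difference in VILLIN-HA/CL4-TCR, with a median of 0.97, and 6 of 7 in Villin-HA + CL4-TCR, with a median of 1.04. Past 2-fold were 3 in VILLIN-HA/CL4-TCR (Psma1, Psma4 and Psma5), where 7.43% of measured genes were higher. In Villin-HA + CL4-TCR 4 were past it (the same 3 and Psma6), where 11.9% of measured genes were higher.

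Psma4 had signals of 1802 in VILLIN-HA/CL4-TCR cells, 1771 in Villin-HA + CL4-TCR cells and 859.6 in CL4-TCR cells. The HA arrays were close to each other and each about 2-fold above CL4-TCR, with log2 differences of 1.07 and 1.04. Psma5 had signals of 4017, 3721 and 1684 in the same order, with log2 differences of 1.25 and 1.14. A second bright probe set of Psma5 gave 1.22 and 1.04, and the remaining one, with signals of 25.2, 27.9 and 39.8, lay near the floor and was highest in CL4-TCR.

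Psma1 had signals of 2801, 2971 and 1331 by its brightest probe set, with log2 differences of 1.07 and 1.16 from CL4-TCR. Its other probe sets were dim, with signals between 44.9 and 121.4 where above the floor on all arrays, and had log2 differences of -0.70 and -0.22 in VILLIN-HA/CL4-TCR. Psma6 had log2 differences of 0.97 in VILLIN-HA/CL4-TCR and 1.05 in Villin-HA + CL4-TCR, and its other bright probe set gave 1.32 and 1.40. Psma2 and Psma3, further alpha subunits, had differences of 0.68 and 0.47 in VILLIN-HA/CL4-TCR and of 0.74 and 0.46 in Villin-HA + CL4-TCR. A dimmer probe set of Psma3 went the other way, at -0.78 in VILLIN-HA/CL4-TCR and -0.55 in Villin-HA + CL4-TCR.

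Psma7 was the member of the ring that parted the HA arrays. It had signals of 2325 in VILLIN-HA/CL4-TCR cells, 1012 in Villin-HA + CL4-TCR cells and 1199 in CL4-TCR cells. Its log2 difference from CL4-TCR was 0.96 in VILLIN-HA/CL4-TCR and -0.24 in Villin-HA + CL4-TCR. Its VILLIN-HA/CL4-TCR signal was 2.30-fold above that of Villin-HA + CL4-TCR. Its second probe set, with signals of 1316, 634.2 and 501.6, gave 1.39 and 0.34 against CL4-TCR and 1.05 between the HA arrays.

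The structural beta subunits differed less. Psmb1, Psmb2, Psmb3 and Psmb4 had log2 differences from 0.30 to 0.75 in VILLIN-HA/CL4-TCR and from 0.27 to 0.86 in Villin-HA + CL4-TCR against CL4-TCR, none past 2-fold by the brightest probe sets. Psmb1 had the largest, with signals of 1770 in VILLIN-HA/CL4-TCR, 1916 in Villin-HA + CL4-TCR and 1055 in CL4-TCR, and Psmb2 the smallest, with 207.7, 203.6 and 169.2. Over all 14 core genes, 14 had a positive difference in VILLIN-HA/CL4-TCR and 13 in Villin-HA + CL4-TCR, with medians of 0.72 and 0.71, beside 5342 of 11260 and 6467 of 12196 measured genes with a positive difference.

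Most genes of the regulatory cap also lay above CL4-TCR, the majority by less than 2-fold. All 17 cap genes had a positive log2 difference from CL4-TCR in Villin-HA + CL4-TCR, with a median of 0.76, and 14 of 17 in VILLIN-HA/CL4-TCR, with a median of 0.44. Past 2-fold were 4 genes in Villin-HA + CL4-TCR (Psmc1, Psmc5, Psmd7 and Psmd13) and 1 in VILLIN-HA/CL4-TCR (Psmd1), beside 11.9% and 7.43% of all measured genes, so the single gene of 17 is no larger a share than that of all genes. Psmc5 and Psmd13 were short of 2-fold with the arrays scaled to the same median.

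The 6 ATPases, which unfold the substrate, had median log2 differences from CL4-TCR of 0.32 in VILLIN-HA/CL4-TCR and 0.72 in Villin-HA + CL4-TCR. Psmc1 had signals of 424.6 in VILLIN-HA/CL4-TCR cells, 912.5 in Villin-HA + CL4-TCR cells and 261.7 in CL4-TCR cells. Its Villin-HA + CL4-TCR signal was 3.49-fold above CL4-TCR and the VILLIN-HA/CL4-TCR signal lay between them, at a log2 difference of 0.70.

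Psmc5 had signals of 302, 806.5 and 392.5 in the same order. It was 2.05-fold higher in Villin-HA + CL4-TCR than in CL4-TCR, and its log2 difference in VILLIN-HA/CL4-TCR was -0.38. Psmc4, with log2 differences of 0.04 and 0.41, and Psmc3, with 0.20 and 0.87, also had the larger value in Villin-HA + CL4-TCR. Psmc6 had 0.66 in VILLIN-HA/CL4-TCR and 0.57 in Villin-HA + CL4-TCR, and its 2 dimmer probe sets gave 1.19 and at least 1.77 in VILLIN-HA/CL4-TCR and 1.03 and at least 1.73 in Villin-HA + CL4-TCR.

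Among the 11 non-ATPase subunits, the largest difference in VILLIN-HA/CL4-TCR was that of Psmd1, a large scaffold subunit. Psmd1 had signals of 958.3 in VILLIN-HA/CL4-TCR cells, 767.8 in Villin-HA + CL4-TCR cells and 438.4 in CL4-TCR cells, 2.19-fold and 1.75-fold above CL4-TCR. Psmd14, the enzyme that strips ubiquitin from the incoming protein, had 3462, 3929 and 2005, with log2 differences of 0.79 and 0.97. Both were thus above CL4-TCR on each HA array. Psmd2, the other large scaffold subunit, had 1228, 2133 and 1070, and at 1.99-fold in Villin-HA + CL4-TCR it fell just short of the count, while Psmc5 at 2.05-fold was just inside it. Psmd6, Psmd8, Psmd11 and Psmd12, further non-ATPase subunits, had log2 differences from 0.53 to 0.67 in VILLIN-HA/CL4-TCR and from 0.34 to 0.76 in Villin-HA + CL4-TCR.

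Psmd7, the structural partner of Psmd14, had signals of 152.4, 321.2 and 115.1 and was 2.79-fold higher in Villin-HA + CL4-TCR than in CL4-TCR. Its other measured probe set had 106.7, 57.8 and 124, a log2 difference of -1.10 in the same comparison, so the direction of Psmd7 rests on the probe set. Psmd13, another subunit of the lid, had 262.5, 459.9 and 204.4, with log2 differences of 0.36 and 1.17, and its other probe sets above the floor on every array gave -0.54 and 0.65 in Villin-HA + CL4-TCR. Its last probe set lay above the floor there alone, at a signal of 113.9 and a log2 difference of at least 1.85.

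Negative differences in VILLIN-HA/CL4-TCR were those of Psmd3, Psmc5 and Psmd4. Psmd3, a subunit of the lid, had signals of 273.4, 623 and 375, with log2 differences of -0.46 in VILLIN-HA/CL4-TCR and 0.73 in Villin-HA + CL4-TCR. Psmd4, a ubiquitin receptor, had 854.4, 1246 and 1067, with -0.32 and 0.22. None of these negative differences passed 2-fold.

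The cap chaperones Psmd5, Psmd9 and Psmd10 had median log2 differences of -0.01 in VILLIN-HA/CL4-TCR and 0.28 in Villin-HA + CL4-TCR, and none was past 2-fold. Psmd9 was nearest, with signals of 101.6 in VILLIN-HA/CL4-TCR, 201.9 in Villin-HA + CL4-TCR and 102 in CL4-TCR. Psme3, an activator of nuclear proteasomes, had signals of 520.5, 341.3 and 217.2 and was 2.40-fold higher in VILLIN-HA/CL4-TCR than in CL4-TCR. The other measured probe set of Psme3 had 241.8, 98.1 and 209.8, with log2 differences of 0.20 and -1.10. Psme4, an activator with a known role in male germ cells, had 0.32 in VILLIN-HA/CL4-TCR and 0.10 in Villin-HA + CL4-TCR. Psme3 thus went the other way from Psme1 in VILLIN-HA/CL4-TCR cells by its brightest probe set.

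Of the genes that match by their letters alone, Psmc3ip had signals of 169.6 in VILLIN-HA/CL4-TCR, 194.6 in Villin-HA + CL4-TCR and 68.8 in CL4-TCR and was 2.47-fold and 2.83-fold above CL4-TCR. Its second probe set gave log2 differences of 0.22 and 0.36. Psme3ip1 had -0.10 and -0.11. The symbols of these genes bring them into the counts over all members.

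**Figure D2:**
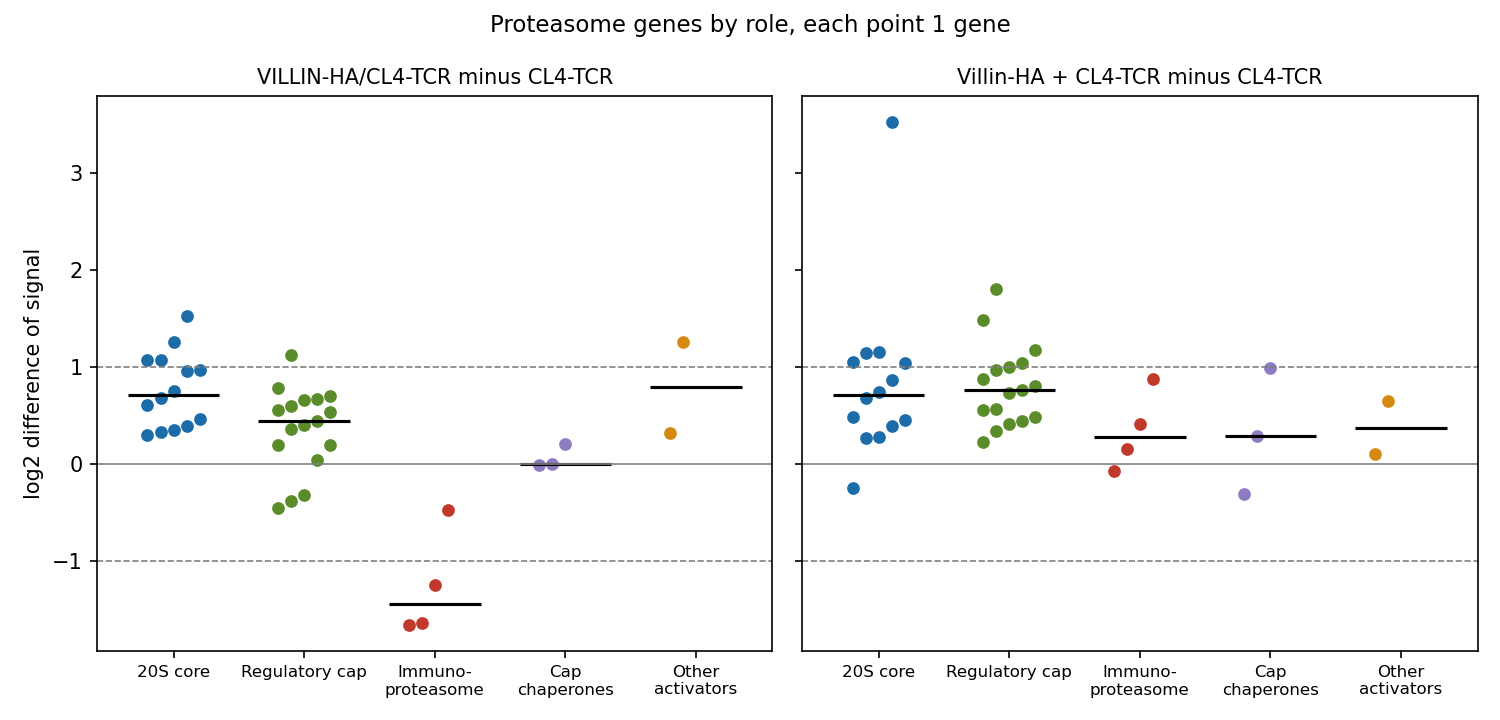
Log2 difference of signal from the CL4-TCR array (y axis) by role (x axis), for VILLIN-HA/CL4-TCR (left) and Villin-HA + CL4-TCR (right). Each point is 1 gene by its brightest probe set, black bars are medians and dashed lines mark 2-fold. The immunoproteasome median is -1.44 on the left and 0.28 on the right, while core and cap medians lie between 0.44 and 0.76.

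Over all 44 genes, 43 were measured between VILLIN-HA/CL4-TCR and CL4-TCR, of which 7 were higher and 3 lower by at least 2-fold, beside 7.43% higher and 6.63% lower among all measured genes (14.1% in either direction). Between Villin-HA + CL4-TCR and CL4-TCR, 42 were measured, 10 were higher and none lower, beside 11.9% and 9.53% (21.4% in either direction). No test underlies the count of none. The comparisons share the CL4-TCR array, so a signal that was high or low on that array alone would enter both. With the arrays scaled to the same median, the all-gene median of Villin-HA + CL4-TCR against CL4-TCR was -0.14 instead of 0.06, 38.3% instead of 55.6% of all calls were higher, and 4 members were higher by at least 2-fold. Psma1, Psma4, Psma5, Psma6, Psmc5 and Psmd13 were then short of 2-fold, at 0.83 to 0.96.

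Other multi-subunit complexes served as a yardstick. The 76 genes of the mitochondrial ribosome had median log2 differences from CL4-TCR of 0.23 in VILLIN-HA/CL4-TCR and 0.26 in Villin-HA + CL4-TCR, and those of the respiratory chain and ATP synthase 0.41 over 78 and 0.41 over 82 measured genes. The 8 subunits of the CCT chaperonin, which folds actin and tubulin, had 0.60 and 0.35. The joint median of core and cap genes was 0.56 in VILLIN-HA/CL4-TCR and 0.74 in Villin-HA + CL4-TCR. These medians are descriptions, with no test between complexes.

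Set directly against each other, the HA arrays differed most in the immunoproteasome, in the core genes Psmb7 and Psma7 and in part of the cap. Of 43 measured members, 1 was higher in VILLIN-HA/CL4-TCR than in Villin-HA + CL4-TCR by at least 2-fold, Psma7, and 8 were lower, beside 6.14% higher and 8.95% lower among 12081 measured genes (15.1% in either direction). The 8 were Psmb8, Psmb10, Psme1, Psmb7, Psmc1, Psmc5, Psmd3 and Psmd7. This comparison does not use the CL4-TCR array.

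The immunoproteasome median was -1.69, against -0.05 for the core and -0.37 for the cap, and the all-gene median was -0.06. Psmb9 had -0.88. By the brightest probe sets, every core gene apart from Psma7 and Psmb7 lay between -0.29 (Psmb3) and 0.33 (Psmb6). Dimmer probe sets of Psmb3, Psma1 and Psma6 had -0.74, -0.78 and 0.85. In the cap the lowest values by the brightest probe sets were those of Psmc5 (-1.42), Psmd3 (-1.19) and Psmc1 (-1.10). The highest were those of Psmd6 (0.33), Psmd1 (0.32) and Psmc6 (0.10). A second probe set of Psmc2 had -1.58, where its brightest had -0.04. With the arrays scaled to the same median, the all-gene median was 0.19 and 67.1% instead of 40.7% of all calls were higher in VILLIN-HA/CL4-TCR. Under that scaling Psmc1, Psmd3 and Psmd7 were short of 2-fold, at -0.84, -0.92 and -0.81, and the core median was 0.21. The other measured probe set of Psmd7 had 0.88 between the HA arrays, and with its probe sets averaged Psmd7 had -0.10. The VILLIN-HA/CL4-TCR array is also the one with the highest Gapdh ratio of 3′ to 5′ signal, and the Villin-HA + CL4-TCR array the one with the lowest, while the Actb ratios differed far less. The Villin-HA + CL4-TCR array is also the one with muscle and stromal transcripts, and the part of these in the differences was not tested.

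**Figure D3:**
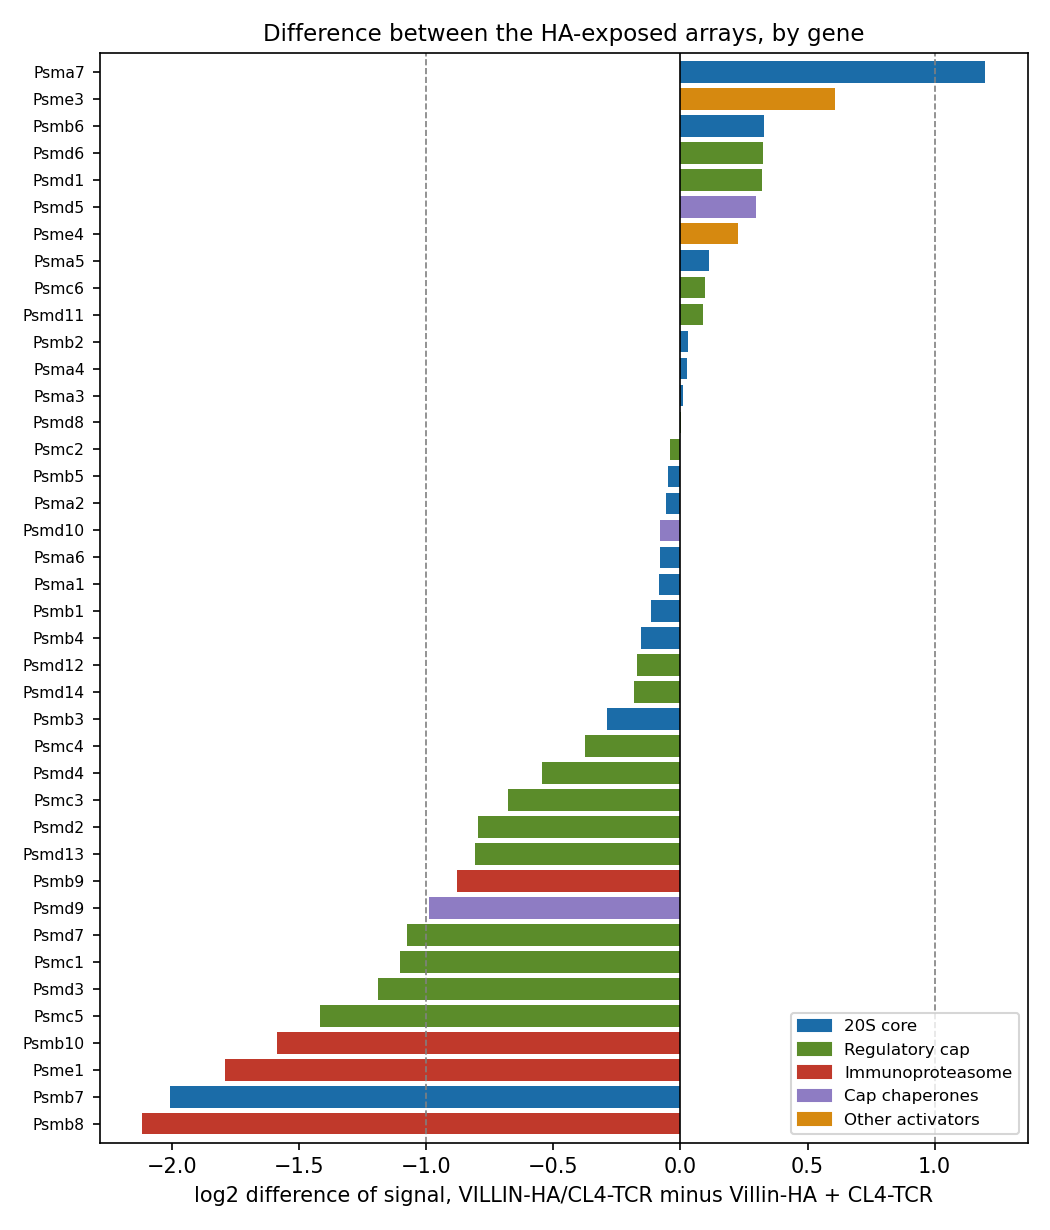
Log2 difference of signal in VILLIN-HA/CL4-TCR from that in Villin-HA + CL4-TCR (x axis, positive where higher in VILLIN-HA/CL4-TCR) for each of 40 proteasome genes (y axis), coloured by role, with dashed lines at 2-fold. Psma7 is at 1.20, most core genes are near 0, and Psmb8, Psmb7, Psme1 and Psmb10 reach -2.12, -2.01, -1.79 and -1.59.

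Probe sets of the same gene did not always lie on the same side of 0. Of the 44 genes, 23 have several probe sets. In 13 of them, probe sets measured above the floor on each compared array lay on both sides of 0 in some comparison, and in 7 of these 1 of the probe sets was past 2-fold: Psma1, Psmb1, Psmc2, Psmd7, Psmd11, Psmd13 and Psme3. Psmc2, an ATPase of the cap, is an example. Its brightest probe set had signals of 4357 in VILLIN-HA/CL4-TCR, 4487 in Villin-HA + CL4-TCR and 3205 in CL4-TCR, a second had 862.6, 2581 and 1055, and another 35.2, 35.5 and 67.6, which gives log2 differences in Villin-HA + CL4-TCR of 0.49, 1.29 and -0.93. There the negative one is the probe set near the floor, while in VILLIN-HA/CL4-TCR the bright probe sets themselves had 0.44 and -0.29. Psmd11, a lid subunit, ranged from -0.13 to 1.33 in Villin-HA + CL4-TCR against CL4-TCR. With the probe sets of each gene averaged, the differences of VILLIN-HA/CL4-TCR from CL4-TCR were 0.05 for Psma1, 0.72 for Psma5, 0.73 for Psme3 and 0.76 for Psmc3ip, all short of 2-fold. Those of Villin-HA + CL4-TCR were 0.47 for Psma1, 0.62 for Psma5, 0.75 for Psma6, 0.19 for Psmd7, 0.78 for Psmd13 and 0.93 for Psmc3ip, short of 2-fold as well. Of the immunoproteasome genes, only Psmb8 has more than 1 probe set, and both of its probe sets lay below CL4-TCR in VILLIN-HA/CL4-TCR.

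**Figure D4:**
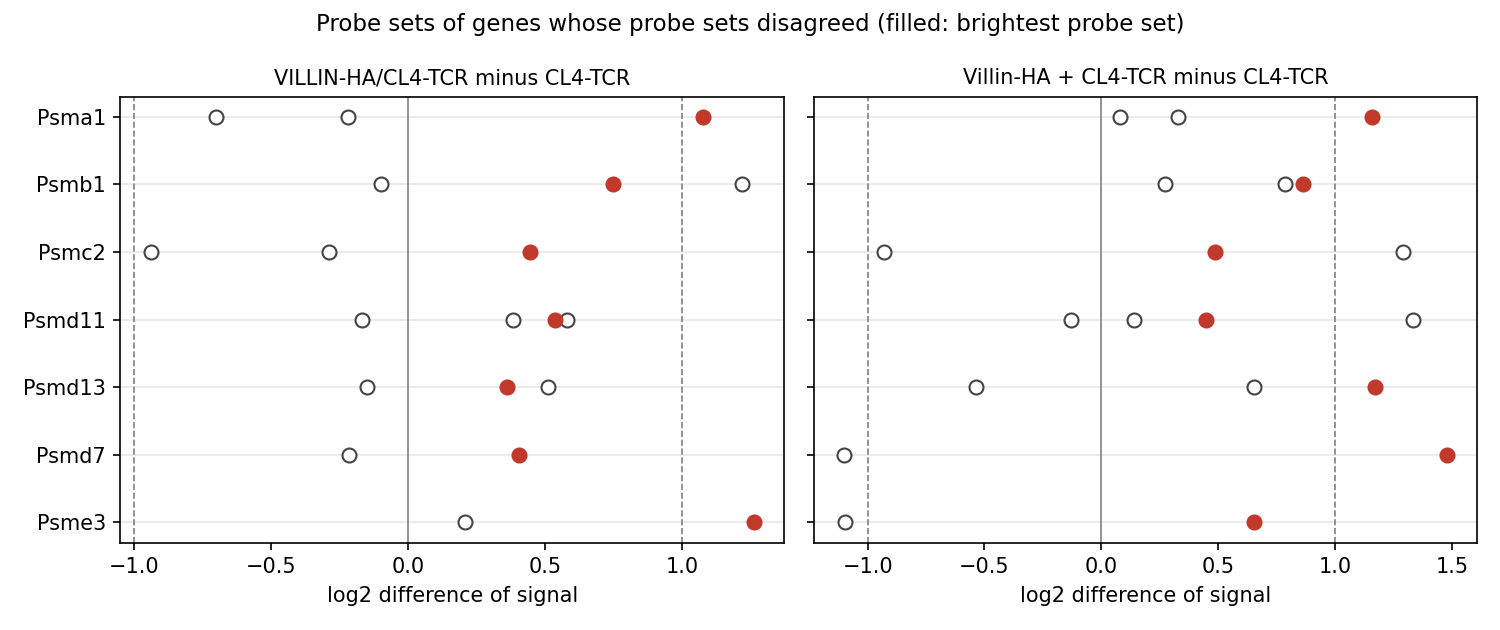
Log2 difference from CL4-TCR (x axis) of each probe set measured above the floor on each compared array, for the 7 genes (y axis) whose probe sets lay on both sides of 0 with 1 past 2-fold in some comparison. Filled points are the brightest probe sets, open points the others, and dashed lines mark 2-fold. The probe sets of Psmd7 lie at -1.10 and 1.48 on the right.

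Genes that build, serve or control the proteasome were mostly within 2-fold, as were most measured genes. Against CL4-TCR, 14.1% of all measured genes passed 2-fold in either direction in VILLIN-HA/CL4-TCR and 21.4% in Villin-HA + CL4-TCR. Between the HA arrays 15.1% did. Of 20 measured assembly factors and partners, none passed 2-fold in VILLIN-HA/CL4-TCR against CL4-TCR, with a median log2 difference of 0.22, and in Villin-HA + CL4-TCR 1 was higher, 1 lower and the median was -0.01. Pomp, the chaperone that completes new cores, was the higher one, with signals of 1040 in VILLIN-HA/CL4-TCR, 1599 in Villin-HA + CL4-TCR and 561.7 in CL4-TCR, and log2 differences of 0.89 and 1.51. Nfe2l2, a factor that induces proteasome genes under oxidative stress, was the lower one, with 440.9, 192.5 and 667.3 and differences of -0.60 and -1.79. Nfe2l1, the factor that replenishes subunits when the proteasome is blocked, had -0.28 and -0.44. Between the HA arrays Nfe2l2 was higher in VILLIN-HA/CL4-TCR, at 1.20, and Psmf1, an inhibitor of the proteasome, lower, at -1.47, where its other probe sets gave -0.63, 0.24 and 0.10. Pomp thus lay above CL4-TCR on both HA arrays, as most subunits did, and the factors below it.

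Of 10 listed genes of ubiquitin transfer, 5 were found and measured, of which 3 were lower in Villin-HA + CL4-TCR than in CL4-TCR and none in VILLIN-HA/CL4-TCR: Uba6, an enzyme that activates ubiquitin (log2 difference -1.37), Ube3a (-1.07) and Ube3c (-1.12), both ubiquitin ligases. Over all measured genes 9.53% and 6.63% were lower. Other measured probe sets of Uba6 ranged from -0.11 to 0.24 there, and those of Ube3c had 0.71 and, below the floor in Villin-HA + CL4-TCR, at most -1.11. Between the HA arrays Uba6 and Ube3a were higher in VILLIN-HA/CL4-TCR, at 1.75 and 1.07. There the other measured probe sets of Uba6 gave -0.03, 0.50 and, below the floor in Villin-HA + CL4-TCR, at least 0.93. Those of Ube3a ranged from -0.12 to at least 1.74.

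Genes that pass the peptides on to MHC class I, and class I itself, were mostly within 2-fold by their brightest probe sets. Of 12 measured, 1 was lower in VILLIN-HA/CL4-TCR than in CL4-TCR, with a median of -0.37, and 1 in Villin-HA + CL4-TCR, with a median of 0.16, beside 6.63% and 9.53% of all measured genes lower. Tap2, a chain of the transporter that carries peptides into the endoplasmic reticulum, was lower in VILLIN-HA/CL4-TCR, with signals of 353.6 against 562.9 in Villin-HA + CL4-TCR and 725.5 in CL4-TCR. Its partner Tap1 had 882.1, 1432 and 1029, with log2 differences from CL4-TCR of -0.22 and 0.48. Tapbp, which links the transporter to class I molecules, had -0.74 and 0.51, and was lower in VILLIN-HA/CL4-TCR than in Villin-HA + CL4-TCR, at -1.25. Its second, dimmer probe set gave -0.88 and -0.75 against CL4-TCR and -0.12 between the HA arrays, so neither the sign in Villin-HA + CL4-TCR nor that call held in it. Its paralog Tapbpl had -0.87 and -1.01. B2m, the light chain of class I, had 10608, 11949 and 10522, close to level on all arrays. The heavy chains H2-K1 and H2-D1 had -0.62 and -0.61 in VILLIN-HA/CL4-TCR and 0.14 and -0.21 in Villin-HA + CL4-TCR by their brightest probe sets. In VILLIN-HA/CL4-TCR, however, 3 of 4 measured probe sets of H2-K1 and 6 of 8 of H2-D1 were lower than in CL4-TCR by at least 2-fold, and the lowest were -1.70 and -1.77. In Villin-HA + CL4-TCR none of them was past 2-fold. Most of these probe sets are of a type that can match several transcripts, so which heavy chain gene each of those reads is uncertain.

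In the reference annotation Psmb9, Tap1, Psmb8 and Tap2 follow each other on chromosome 17. Their log2 differences from CL4-TCR in that order were -0.47, -0.22, -1.25 and -1.04 in VILLIN-HA/CL4-TCR and 0.41, 0.48, 0.87 and -0.37 in Villin-HA + CL4-TCR. All 4 neighbours were negative on the first array, and Psmb8 and Tap2 were past 2-fold. Psmb10 and Psme1, with differences of -1.66 and -1.64 in VILLIN-HA/CL4-TCR, lie on other chromosomes.

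Of 16 listed genes that interferon gamma is known to induce, 12 were measured, of which 3 were lower in VILLIN-HA/CL4-TCR than in CL4-TCR and 1 higher, with a median log2 difference of -0.55, and in Villin-HA + CL4-TCR 1 was lower and 3 higher, with a median of -0.23. Over all measured genes 6.63% were lower and 7.43% higher in the first comparison, and 9.53% and 11.9% in the second. Irf1, a transcription factor that induces Psmb9 and Tap1, had signals of 1326 in VILLIN-HA/CL4-TCR, 2169 in Villin-HA + CL4-TCR and 2689 in CL4-TCR, with differences of -1.02 and -0.31. The guanylate-binding protein genes Gbp2 and Gbp7 were the other lower ones in VILLIN-HA/CL4-TCR, at -1.06 and -1.12, and a second probe set of Gbp2 had -0.71. Irf8, a factor of myeloid cells and of activated T cells, was the higher one, at 2.96, with 0.59 by its other probe set. Nlrc5, the activator of class I genes, had -0.52 and -0.74, so it lay below CL4-TCR on both HA arrays. In Villin-HA + CL4-TCR the lower gene was Iigp1, an interferon-induced GTPase (-1.10), and the higher ones were Cxcl10, a chemokine (3.71), Irf8 (1.47) and Cd274, the PD-1 ligand (1.34). Between the HA arrays Irf8 was higher in VILLIN-HA/CL4-TCR (1.49) and Cxcl10 lower (-3.29). Ifng, the gene of interferon gamma itself, had signals of 58.7 in VILLIN-HA/CL4-TCR, 631.5 in Villin-HA + CL4-TCR and 4.2 in CL4-TCR, the last below the floor. The part of interferon gamma in the differences was not tested.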

How the data were processed

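Total RNA (6 µg per array) of 3 samples was hybridised as biotin-labelled cRNA, per the labels' protocols. The authors deposited intensity values made with MAS5, per the submitters' processing notes, with version and settings not given in the sources used here. MAS5 scales each array to 1 trimmed mean, which hides any change common to most transcripts. Probe sets were named through the platform annotation, updated to RefSeq GRCm38.p6. Of 45101 probe sets, 34958 had 1 symbol, 932 several and 9211 none.

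Signals were floored at 31.7, and a gene was measured where the higher of its compared signals exceeded this. Differences were counted at 2-fold, with no test. The calculation was tested on simulated data. Named were the immunoproteasome and cutting subunits, Psme3 and Psme4, the extreme core and cap members of each comparison, members past 2-fold or with opposed probe sets, genes matched by letters alone, and fixed partners; the remaining subunits are described so that every member is accounted for. The members and lists were chosen with earlier results of these data known. Alternatives changed the floor, scaling, probe set, filter and fold. Python 3.11.15 and pandas 2.3.3 were used.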

Additional observations from a re-analysis of the deposited data

How the results depend on the processing

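No paired analysis was possible because each group holds 1 array, and for the same reason no array could be left out. Of 132 summary values recomputed under alternatives, 113 were rated the same and 19 moved, and none of the medians past 2-fold changed sign. A median was rated the same if it stayed within the probe set error, and a count of genes if it stayed within 1.5-fold. The changes of floor could move few of these values, since most members lay above every floor used. The immunoproteasome median ranged from -1.64 to -1.23 between VILLIN-HA/CL4-TCR and CL4-TCR. Of 29 single-gene calls at 2-fold, 16 were lost under some alternative, and those of Psmb10, Psme1 and Psmb7 were not. Each of these genes has 1 probe set, of a type that was never left out, and signals above every floor used. The alternatives of probe set, filter and floor therefore could not change their calls, and only those of scaling could.

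With the arrays scaled to the same median, Villin-HA + CL4-TCR against CL4-TCR had 4 instead of 10 members higher, a core median of 0.50 and a cap median of 0.56. Under that scaling VILLIN-HA/CL4-TCR against Villin-HA + CL4-TCR had 5 instead of 8 members lower, a core median of 0.21 instead of -0.05 and a cap median of -0.11. The share of calls over all genes that were higher on VILLIN-HA/CL4-TCR than on CL4-TCR was 59.2% instead of 52.9%.

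With probe sets averaged, the cap median of VILLIN-HA/CL4-TCR against CL4-TCR was 0.24 and the median of replacing minus constitutive subunits -1.17 instead of -1.59. Villin-HA + CL4-TCR then had 5 members higher than CL4-TCR, and the immunoproteasome median between the HA arrays was -1.37.

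With probe sets of ambiguous types left out, 2 of the 3 pairs of subunits were left, with medians of -2.13 for VILLIN-HA/CL4-TCR and -1.74 instead of 0.13 for Villin-HA + CL4-TCR, each against CL4-TCR; between the HA arrays it was -0.39. There, 2 members were higher on VILLIN-HA/CL4-TCR than on Villin-HA + CL4-TCR and the cap median was -0.66. Psma5 turned to -0.33 on both HA arrays against CL4-TCR, by a probe set near the floor, and Psmd13 to -0.54 on Villin-HA + CL4-TCR. The cause was not tested.

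At 1.5-fold, 17 members were higher on VILLIN-HA/CL4-TCR and 22 on Villin-HA + CL4-TCR than on CL4-TCR, and 2 were higher and 13 lower on VILLIN-HA/CL4-TCR than on Villin-HA + CL4-TCR. Over all measured genes the shares at 1.5-fold were 16.4% and 23.6% higher than CL4-TCR, and 16.4% higher and 20.8% lower between the HA arrays.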
